A study of Mus musculus with 2 samples.

Results

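A selection of 9 genes of pyruvate entry and of the citric acid cycle was followed through long-read RNA sequencing of the mouse adrenal gland. The genes are Mpc1, Mpc2, Pdha1, Dlat, Cs, Idh3a, Idh3b, Idh3g and Mdh2. They were taken by name from a list chosen by measured values of these same libraries, namely their read levels and their leading transcript models. Those values are therefore descriptions and were not tested for standing out. All 9 of 9 were read in both libraries. Of the 16945 annotated genes read in either one, 16027 were read in replicate 1 and 13678 in replicate 2. The 9 genes were represented by 171 transcript models in replicate 1 and 99 in replicate 2. The labels describe 1 group with 2 libraries: adrenal gland tissue of B6CASTF1/J females, an F1 cross of the C57BL/6 and CAST mouse strains, aged 36 days. Replicate 1 was made from 1 µg of RNA, and the labels give no treatment. The labels number the libraries as separate biological replicates, but they disagree with each other on whether both came from 1 animal. Tests between the libraries therefore compare those 2 libraries and no condition.

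Pyruvate made in the cytosol crosses the inner mitochondrial membrane through a carrier built from the proteins of Mpc1 and Mpc2. The pyruvate dehydrogenase complex, of which Pdha1 encodes the E1 alpha subunit and Dlat the E2 core, turns it into acetyl-CoA. Citrate synthase (Cs), the NAD-dependent isocitrate dehydrogenase made of alpha, beta and gamma subunits (Idh3a, Idh3b, Idh3g) and malate dehydrogenase (Mdh2) then act in the cycle, and in steroid-making cells the mitochondria also house the first step of hormone synthesis.

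The files held 1223776 reads for replicate 1 and 453761 for replicate 2, of which 1144572 and 414588 fell in annotated genes, so replicate 1 was 2.76 times deeper. Levels are given as CPM, reads per 1000000 annotated-gene reads, and 3 reads, the upper limit for a gene with none, came to 2.62 CPM in replicate 1 and 7.24 CPM in replicate 2. A read was called full-length when its model was an annotated transcript or an unannotated chain of introns, which held for 81.9% and 75.7% of annotated-gene reads. All 9 cortex markers and all 7 medulla markers of the adrenal gland were read in both libraries. The cortex markers summed to 73307 CPM in replicate 1 and 92424 in replicate 2, but to 55553 and 49587 in CPM of full-length reads, which turned the direction. The medulla markers summed to 11341 and 8343 CPM. The 8 skeletal muscle markers summed to 955 CPM in replicate 1 and 7.24 in replicate 2, with Myh4 at 0 in both and Atp2a1, Tnnc2, Tcap and Mb at 0 in replicate 2. The 5 brown fat markers summed to 2686 and 4327 CPM, and the 6 white fat markers to 3269 and 5608.

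Mpc1 and Idh3g were led by transcript models that the annotation does not hold, and in both the difference lay at a very short exon. The stretches below show that place on the transcript strand, from GENCODE M21 transcripts on mm10, with 24 bases of coding sequence to either side. Capitals mark the bases that the forms treat differently. For Mpc1, on the plus strand of chromosome 17, the left flank is chr17:8283938-8283961 (the end of the first exon of Mpc1-208) and the right flank chr17:8296535-8296558 (the start of its exon 3). The capitals in Mpc1-208 are its exon 2, chr17:8293415-8293418, and those in Mpc1-201 are the exon chr17:8296527-8296530. Both exons are coding and 4 bases long.
Mpc1-208: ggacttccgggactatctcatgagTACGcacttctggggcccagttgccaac
Mpc1-201: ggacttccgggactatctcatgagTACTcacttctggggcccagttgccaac
Mpc1 leading model: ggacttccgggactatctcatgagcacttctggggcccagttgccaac

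For Idh3g, on the minus strand of the X chromosome, the left flank is chrX:73782675-73782698 (the end of exon 2) and the right flank chrX:73782080-73782103 (the start of exon 4). The capitals in Idh3g-201 are its coding exon 3 of 12 bases, chrX:73782298-73782309. Those in the leading model are the 4 bases chrX:73782671-73782674 that follow the annotated end of exon 2 and are intronic in Idh3g-201.
Idh3g-201: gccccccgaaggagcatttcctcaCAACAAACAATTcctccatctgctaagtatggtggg
Idh3g leading model: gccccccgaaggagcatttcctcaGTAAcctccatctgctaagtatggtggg
Idh3g second model: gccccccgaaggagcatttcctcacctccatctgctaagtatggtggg

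Mpc1 (ENSMUSG00000023861.17, chr17:8282904-8297661, plus strand) encodes one of the pair of carrier proteins. It had 356 reads in replicate 1 and 173 in replicate 2, or 311 and 417 CPM. Of its full-length reads, 336 of 355 (94.6%) and 162 of 169 (95.9%) had one and the same unannotated intron chain. That chain runs straight from exon 1 to exon 3 of Mpc1-208 over an intron of 12573 bases, chr17:8283962-8296534, and shares the other introns of that transcript. All its splice sites are annotated, so the authors' class for it is NIC, a new combination of known sites. The 4-base exon of Mpc1-208 was in 0 of 347 spliced reads that crossed its place in replicate 1, which allows a share of up to 0.865%, and in 0 of 166 in replicate 2, which allows 1.81%. The 4-base exon of Mpc1-201 is followed by an intron of 4 bases in the annotation, GCAG at chr17:8296531-8296534, and 0 reads in both libraries had that intron. An unannotated chain with 2 reads in replicate 1 and 0 in replicate 2 entered at the start of that exon and ran on into exon 3 without the 4-base intron.

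The shift is not a multiple of 3 bases. Read from the start codon of Mpc1-208, the frame runs for 109 codons before a stop in the annotated transcript and in the form with TACT, and for 42 codons in the leading model. In total 3 unannotated Mpc1 chains were found in both libraries. One of the others joined the first exon of Mpc1-205 to the same exon 3 (3 reads and 1), and one followed the leading chain but also left out the exon of 133 bases that precedes the last (3 and 1). Reads entering the longer, 81-base form of exon 2, chr17:8293415-8293495, numbered 4 in replicate 1 and 1 in replicate 2. The leading model began 858 bases upstream of the annotated start of Mpc1-208 in replicate 1 and at that start in replicate 2, with the same introns. Its listed length was therefore 1812 and 954 bases, which bears on every level of Mpc1 given per length.

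The Mpc1 level is uncertain because of a near-identical copy. Mpc1-ps (ENSMUSG00000091498.4, chr12:110858565-110858894, minus strand) is a processed pseudogene without introns. Its 330 bases differ from the coding sequence of Mpc1-208 with its stop codon at 1 position (99.7% identity). It contains the junction stretch shown above with the TACG.
Mpc1-ps: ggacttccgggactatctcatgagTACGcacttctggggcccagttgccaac
The files give Mpc1-ps 188 reads in replicate 1 and 103 in replicate 2, all on its single annotated model. Whether those reads came from the pseudogene or from spliced Mpc1 RNA was not tested, since the reads themselves were not analysed here. With them added, a count chosen after the data were seen, the Mpc1 level became 571 CPM in place of 364 CPM, each the mean of both libraries. The 2 other pseudogenes with aligned identity of at least 85% to Mpc1 over at least 200 bases, Gm20428 and Gm8219, had 0 reads in both libraries.

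Mpc2 (ENSMUSG00000026568.6, chr1:165460637-165481214, plus strand), the carrier's other protein, had 400 and 160 reads (350 and 386 CPM). The annotated Mpc2-201, of 5 exons, took 385 of 395 full-length reads (97.5%) in replicate 1 and 156 of 157 (99.4%) in replicate 2. No unannotated chain of Mpc2 was found in both libraries. The paralog Mpc1l had 0 reads in each library.

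Pdha1 (ENSMUSG00000031299.10, chrX:160122209-160138413, minus strand), whose protein is the regulated subunit of the complex, had 477 reads in replicate 1 and 119 in replicate 2 (417 and 287 CPM). Pdha1-201 held 431 of 436 (98.9%) and 103 of 104 (99.0%) full-length reads. Its testis paralog Pdha2 had 0 reads. Map3k15 overlaps Pdha1 on the opposite strand over 1143 bases and had 1 read and 0. Dlat (ENSMUSG00000000168.9, chr9:50634633-50659780, minus strand) had 191 and 85 reads (167 and 205 CPM). Dlat-201, at 4035 bases, was the longest leading transcript of the set and took 157 of 169 (92.9%) and 79 of 81 (97.5%) full-length reads. An unannotated Dlat chain in which both splice sites of 1 intron differ from Dlat-201 had 5 reads in replicate 1 and 0 in replicate 2.

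Cs (ENSMUSG00000005683.8, chr10:128337734-128362479, plus strand) makes citrate from acetyl-CoA and oxaloacetate. It had 346 and 121 reads (302 and 292 CPM), the smallest difference between libraries among the 9. Cs-201 led with 268 of 273 (98.2%) and 81 of 82 (98.8%) full-length reads. Incomplete and Genomic models held the other reads of Cs, so that 78.9% of its reads were full-length in replicate 1 and 67.8% in replicate 2. The paralog Csl, 90.4% identical over 1617 aligned bases, had 0 reads.

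Mdh2 (ENSMUSG00000019179.10, chr5:135778480-135790398, plus strand), which makes oxaloacetate from malate, was the most read of the 9. It had 692 and 272 reads, or 605 and 656 CPM. Mdh2-201 took 543 of 551 (98.5%) and 235 of 239 (98.3%) full-length reads. The single Mdh2 chain that was unannotated and in both libraries used an acceptor that shortened an exon by 6 bases, with 1 read and 2.

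Idh3g (ENSMUSG00000002010.17, chrX:73778963-73786897, minus strand) encodes the gamma subunit, a regulatory partner of the catalytic alpha subunit. It had 629 reads in replicate 1 and 144 in replicate 2, or 550 and 347 CPM. The leading chain took 382 of 478 full-length reads (79.9%) and 96 of 131 (73.3%). It lacks the 12-base exon and adds the bases GTAA to the exon before, a net loss of 8 bases, which is not a multiple of 3. The second chain leaves out the same exon but ends exon 2 where the annotation does, losing 12 bases. It had 49 reads (10.3%) and 16 (12.2%).

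The 12-base exon was in 0 of 467 spliced reads that crossed its place in replicate 1 and in 0 of 129 in replicate 2, which allows shares of up to 0.642% and 2.33%. Both ends of exon 2 are followed by the bases GT in the genome. Among spliced reads joining exon 2 to exon 4, 415 of 466 used the extended end in replicate 1, a share of 89.1% (95% Wilson interval 85.9 to 91.6). In replicate 2 it was 110 of 129, or 85.3% (78.1 to 90.4), and the intervals overlap. Read from the start codon of Idh3g-201, the frame runs 393 codons before a stop in the annotated transcript, 389 in the second chain and 46 in the leading one.

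A further Idh3g chain combined the extended exon with the first exon of Idh3g-205, which lies nearer to exon 2 (15 reads and 7). Over all spliced reads, that first exon was used by 19 of 472 (4.03%, 95% Wilson interval 2.59 to 6.20) and 8 of 128 (6.25%, 3.20 to 11.8). Idh3g had 7 unannotated chains found in both libraries, the most of any member, and annotated transcripts held 2 of its full-length reads in each library.

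Idh3a (ENSMUSG00000032279.11, chr9:54586334-54604661, plus strand), the catalytic subunit, had 474 and 213 reads (414 and 514 CPM). Idh3a-205 led with 419 of 448 (93.5%) and 190 of 200 (95.0%) full-length reads. All 3 of its unannotated chains found in both libraries shortened an exon at its donor end. The most read of them removed 24 bases before the intron chr9:54589897-54592393, a multiple of 3, with 12 reads and 4. The others removed 2 bases (2 reads and 1) and 3 bases (1 and 1).

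Idh3b (ENSMUSG00000027406.12, chr2:130279309-130284547, minus strand), the beta subunit, had the largest unannotated share of the 7 genes led by an annotated transcript, most of it at the 3′ end. It had 565 and 215 reads (494 and 519 CPM). Idh3b-201 held 356 of 414 (86.0%) and 100 of 121 (82.6%) full-length reads. Its last exon, chr2:130279309-130279726, holds 84 coding bases, chr2:130279643-130279726, and the rest is 3′ UTR. There, 2 unannotated chains removed a further intron within that UTR: chr2:130279438-130279555 with 18 reads and 6, and chr2:130279438-130279526 with 16 and 6. Another chain spliced from the exon before straight to the last 129 bases over chr2:130279438-130280262, which takes out those 84 coding bases (12 reads and 5). In replicate 1 the authors' class for all 3 chains was NIC, a new combination of known sites. In replicate 2 the NIC chains of Idh3b held 12 reads and those with a new splice site 9. The 3 chains were therefore not all NIC there. Idh3b and Nop56, on opposite strands, overlap by 5 bases at their ends, and Nop56 had 89 and 20 reads.

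**Figure D1:**
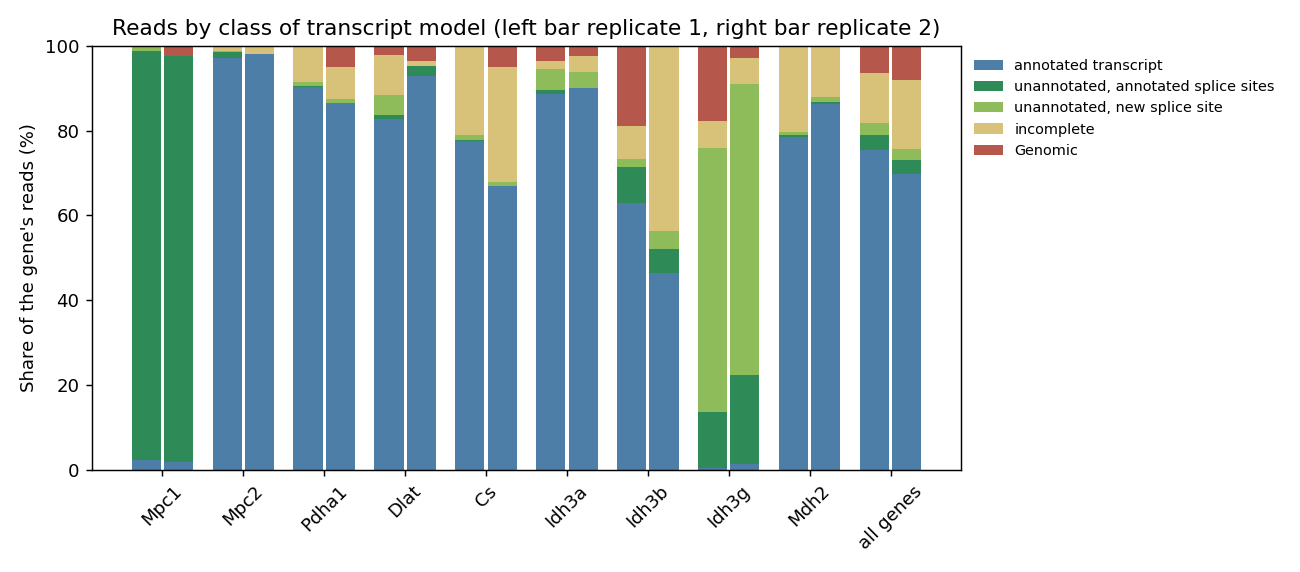
Share of each gene's reads (percent, vertical axis) by class of transcript model, with replicate 1 in the left bar and replicate 2 in the right bar of each pair. Mpc1 and Idh3g are nearly all green (unannotated chains) among full-length reads, the other 7 genes are mostly blue (annotated transcripts), and the incomplete and Genomic shares of Idh3b and Idh3g differ between the libraries.

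Unannotated chains made up 97.7% and 98.2% of full-length Mpc1 reads and 99.6% and 98.5% of full-length Idh3g reads in replicates 1 and 2, as the plot of reads by class shows. They made up 14.0% and 17.4% for Idh3b. For the other 6 genes the share ran from 1.15% (Pdha1) to 6.51% (Dlat) in replicate 1 and from 0% (Mpc2) to 4.00% (Idh3a) in replicate 2. The median over the 3015 genes that had 20 or more full-length reads per library was 3.70% and 3.64%. None of the 9 differed between the libraries in this share by Fisher's exact test with Benjamini-Hochberg adjustment over those genes, against 0.232% of all genes called. At an unadjusted p under 0.05 the count was also 0, and the smallest unadjusted p was 0.191, by the same exact test. The share of the leading model likewise gave 0 of 9 by Fisher's exact test, against 1.06% of genes called, with 0 at an unadjusted p under 0.05 and a smallest unadjusted p of 0.118, for Idh3g. In total, 17 unannotated chains of the members were found in both libraries. Of the chains with at least 2 reads in replicate 1, 13 of 24 were found again in replicate 2, and 11 of 12 in the other direction. Over all genes these shares were 43.1% and 78.4%. In the first direction Idh3g gave 5 of its 8 chains and Mpc1 3 of its 4. Both genes were listed with their unannotated lead known, so nothing is read from the members' shares beside those of all genes.

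**Figure D2:**
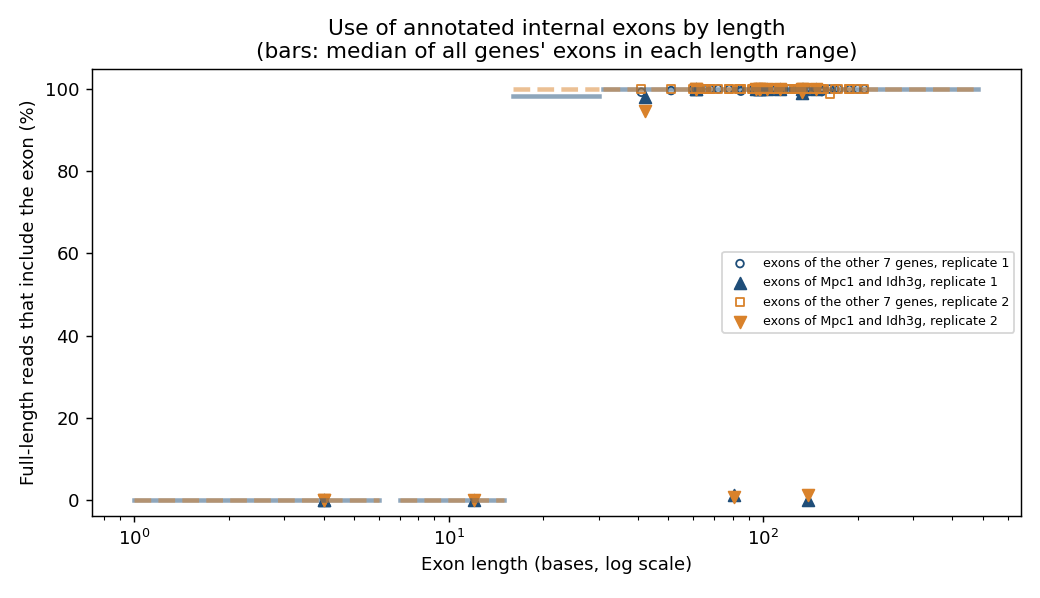
Share of full-length reads that include an annotated internal exon (percent, vertical axis) against the exon's length (bases, log scale), for exons of the 9 genes with at least 10 reads, with horizontal bars for the median of all genes in each length range. The 4-base exons of Mpc1 and the 12-base exon of Idh3g lie at 0%, as do the medians of all genes' exons up to 15 bases, while the members' longer exons lie near 100% apart from 2 alternative exons of Mpc1.

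Exons as short as those of Mpc1 and Idh3g were in hardly any model of any gene in these files. Annotated internal exons of protein-coding transcripts in the basic set, with at least 10 full-length reads across them, were taken by length, as the plot of exon use shows. Of those of 1 to 6 bases, 23 of 23 were in no model in replicate 1 and 16 of 16 in replicate 2. Of those of 7 to 15 bases, 56 of 58 and 41 of 42 were in no model. Of those of 16 to 30 bases, 62 of 376 and 41 of 232 were in no model. The median share of reads including an exon of that range was 98.3% and 100%, with a lower quartile of 30.8% and 60.5%. With transcripts tagged as principal in the annotation alone, that lower quartile was 94.3% and 94.5%. There, 28 of 314 and 23 of 200 such exons were in no model. For each longer range the median was 100% in both libraries. In the members other than Mpc1, 69 exons of 41 to 210 bases were included by at least 98.1% of reads in replicate 1 and 94.7% in replicate 2. Both lowest shares were of Idh3g exon 2 as annotated, which 51 and 18 reads included and 1 read in each library skipped. The 415 and 110 reads with its extended end count in neither. Whether the RNA lacks the exons of Mpc1 and Idh3g was not tested.

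Of the 3015 genes, 58 were led by the same unannotated chain in both libraries (1.92%), Mpc1 and Idh3g among them. Since the unannotated lead was known when the members were listed, nothing is read from their 2 of 9. Among the 25 such genes that had 50 or more full-length reads per library, the highest shares were in Phb2, an inner-membrane prohibitin (97.4% and 99.0%), Pitpna, a phosphatidylinositol transfer protein (98.1% and 95.5%), and Oaz1, an antizyme of ornithine decarboxylase (96.4% and 96.8%). Mpc1 followed, and then Oaz2 (92.6% and 96.7%). The chain of Phb2 leaves out an annotated exon of 6 bases and that of Pitpna one of 8 bases. Those of Oaz1 and Oaz2 leave out no exon and hold no new intron, unlike those of Mpc1 and Idh3g. They lack a gap of 4 bases and of 1 base that the annotation lists as an intron. Of the 58 genes, 9 left out an exon of at most 15 bases, Mpc1 and Idh3g included.

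**Figure D3:**
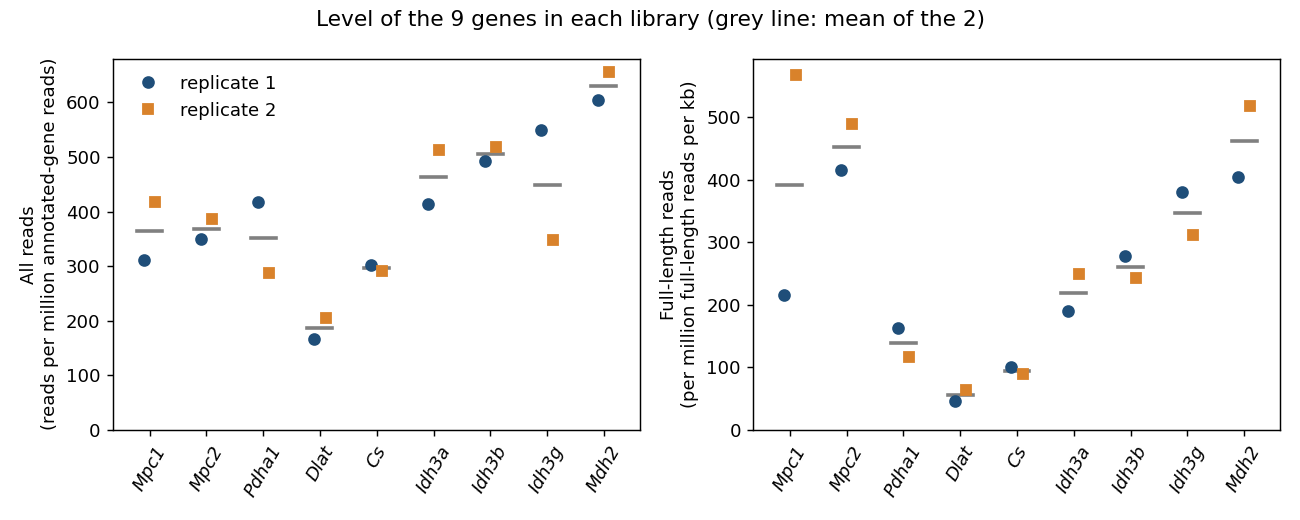
Level of each gene in the 2 libraries, as CPM over annotated-gene reads (left) and as full-length CPM per kb of model (right); grey lines are means of the 2. On the left Mdh2 is highest and Dlat lowest in both libraries, and on the right Mpc1 has the widest gap between libraries.

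Together the 9 genes took 4130 and 1502 reads, which is 3608 and 3623 CPM, or 0.361% and 0.362% of annotated-gene reads. In the ranking of all 16945 genes by mean CPM they stood between 220th (Mdh2) and 1034th (Dlat), as a description of genes listed with their levels known. Counted as full-length reads per 1000000 full-length reads and per kilobase of model, Mdh2 came first, at 461 ± 81.0 (SD, n = 2), then Mpc2 at 453 ± 52.3 (SD, n = 2). Mpc1 followed at 392 ± 249 (SD, n = 2), with 215 and 568 in the libraries where its listed model is longer in replicate 1. Idh3g stood at 346 ± 48.0, Idh3b at 261 ± 24.9 and Idh3a at 219 ± 42.2 (SD, n = 2 each). The order of these 3 subunits depended on the division by length: before it, the means were 558 CPM of full-length reads for Idh3a, 464 for Idh3g and 414 for Idh3b. The length used was that listed for each model, not that of the reads. It was 2580 bases for Idh3a-205, but 1684 and 2409 in the 2 libraries for its chain with 24 bases removed. How far this moved the order of the 9 was not tested. Per kilobase, Pdha1 stood at 140 ± 33.4, Cs at 94.6 ± 7.47 and Dlat at 55.2 ± 13.3 (SD, n = 2 each). In this order the 2 library values of neighbours overlapped from Mdh2 through Idh3g and between Idh3b and Idh3a. They did not overlap between Idh3g and Idh3b, Idh3a and Pdha1, Pdha1 and Cs, or Cs and Dlat.

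Within complexes, and between Mdh2 and Cs, the same per-kilobase levels gave ratios that depended on the library. They also depended on the division by length, so the ratio of full-length reads is given beside each. Idh3b over Idh3a was 1.47 per kilobase in replicate 1 and 0.978 in replicate 2, against 0.924 and 0.605 in reads. Idh3g over Idh3a was 2.01 and 1.25 per kilobase, against 1.07 and 0.655 in reads. Which subunit stood higher thus turned with the scale, for Idh3b in replicate 1 and for Idh3g in replicate 2. Pdha1 over Dlat was 3.56 and 1.80 per kilobase, against 2.58 and 1.28 in reads. Pdha1 over Pdhb, the beta subunit of the same E1 enzyme, was 1.11 and 0.847 per kilobase, against 2.06 and 1.58 in reads. In replicate 2 this ratio turned with the scale as well. Mdh2 over Cs was 4.05 and 5.81 per kilobase, against 2.02 and 2.91 in reads, so Mdh2 was above Cs in each library on both scales. Mpc2 over Mpc1 was 1.93 and 0.862 per kilobase, with the Mpc1 length as described, against 1.11 and 0.929 in reads.

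**Figure D4:**
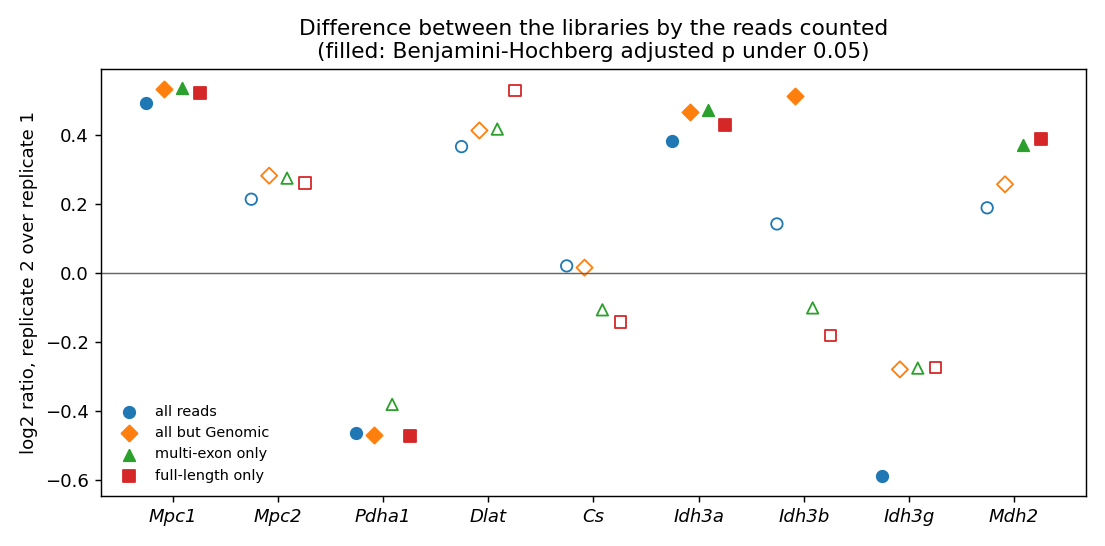
Log2 ratio of replicate 2 over replicate 1 for each gene (vertical axis), computed from all reads, all but Genomic reads, multi-exon reads and full-length reads; filled symbols passed the exact binomial test after Benjamini-Hochberg adjustment. Mpc1 and Idh3a are filled and above 0 in all 4 counts, while Idh3g is filled with all reads alone and Idh3b with all but Genomic reads alone.

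Between the libraries, Mpc1 and Idh3a were higher in replicate 2, and Pdha1 and Idh3g lower, by the 2-sided exact binomial test with TMM scaling and Benjamini-Hochberg adjustment over 9885 genes with at least 10 reads. The other 5 did not pass. Over all genes 7.86% were called higher and 6.13% lower (14% in either direction), and the members' median log2 ratio was 0.19 against -0.01 over all genes tested. Mpc1 gave a log2 ratio of 0.49 (1.41-fold; adjusted p = 0.0036, exact binomial), and Mpc1-ps moved the same way with 0.67 (adjusted p = 0.00295, exact binomial). Idh3a gave 0.38 (1.30-fold; adjusted p = 0.0161, exact binomial). Pdha1 gave -0.47 (adjusted p = 0.0143, exact binomial) and Idh3g gave -0.59 (adjusted p = 0.0001, exact binomial). All these ratios are on the scale of log2(CPM + 1). With 1 library on each side the test covers counting error alone, and fewer cells of a type cannot be told apart from less RNA per cell. The summed muscle, fat, medulla and cortex markers given above differed between the libraries too, and their part in these differences was not tested. Singly, the 9 cortex markers went both ways by the same test, with 3 higher, 3 lower and 3 not called. Of the 7 medulla markers 1 was higher and 3 lower. Of the fat markers 3 of 5 (brown) and 2 of 6 (white) were higher and 0 lower, and all 7 muscle markers tested were lower. For Idh3a the call was lost with total reads in place of TMM (log2 0.31, adjusted p = 0.0627, exact binomial).

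The Idh3g and Idh3b differences turned on reads of 1-exon models at the 3′ end. In replicate 1, 112 of the 629 Idh3g reads lay in a Genomic model of 81 bases, chrX:73778963-73779043, against 4 reads in 1-exon partial models in replicate 2. Without Genomic reads the Idh3g log2 ratio was -0.28 (adjusted p = 0.168, exact binomial), and with full-length reads alone it was -0.27 (adjusted p = 0.203, exact binomial). For Idh3b the same 3′ end was listed differently in the libraries. Replicate 1 had 107 reads in a Genomic model of 129 bases, chr2:130279309-130279437, whose borders are those of the short last exon described above. Replicate 2 had 75 reads in an incomplete model of 418 bases, the last exon of Idh3b-201 whole. With Genomic reads left out, Idh3b therefore became higher in replicate 2 (log2 0.51, adjusted p = 0.000438, exact binomial), while all reads gave 0.14 and full-length reads -0.18. Mdh2 passed with full-length reads (log2 0.39, adjusted p = 0.00702, exact binomial) but not with all reads. It had 78 reads in replicate 1 and 12 in replicate 2 in a 1-exon model of 315 bases at its last exon. With multi-exon reads alone, a count chosen after the data were seen, Pdha1 missed the threshold (log2 -0.38, adjusted p = 0.0693, exact binomial).

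Of 44 other genes of pyruvate and citric acid cycle metabolism that were listed, 40 had enough reads, of which 5 were higher and 9 lower in replicate 2 by the same test and against the same shares of all genes. Among the partners of pyruvate dehydrogenase, Dld, the E3 subunit (457 and 285 CPM; log2 -0.61), and Pdhx, which binds E3 to the core (221 and 130; log2 -0.69), were lower. Pdk2, a kinase that shuts the complex off, was higher (41.1 and 101; log2 1.35). Pdhb (199 and 171) and Pdk4, another such kinase (239 and 169), did not pass. So of the subunits, Pdha1, Dld and Pdhx were lower in replicate 2, where the call of Pdha1 depended on the reads counted, as given above. Dlat (log2 0.37) and Pdhb (log2 -0.15) were not called, and Dlat lay in the other direction.

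In the cycle itself, Sdha, the flavoprotein of succinate dehydrogenase (1324 and 801 CPM; log2 -0.65), Sucla2, a succinyl-CoA ligase subunit (662 and 427; log2 -0.56), and Idh2, the NADP-dependent mitochondrial isocitrate dehydrogenase (219 and 140; log2 -0.57), were lower. Ogdh, the E1 of the 2-oxoglutarate dehydrogenase complex, was higher (107 and 164; log2 0.68), with 24.5 and 73.3 in CPM of full-length reads. Sdhb (912 and 888), Suclg1 (397 and 396), Fh1 (385 and 362), Sdhd (380 and 321), Suclg2 (225 and 241), Dlst (232 and 188) and Sdhc (80.4 and 121) did not pass. Per kilobase of model, Idh2 over Idh3a was 0.733 in replicate 1 and 0.372 in replicate 2, against 0.507 and 0.25 in full-length reads.

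Around the cycle, Pcx, which carboxylates pyruvate to oxaloacetate (598 and 842 CPM; log2 0.56), and Slc25a10, a dicarboxylate carrier (86.5 and 133; log2 0.68), were higher. For Pcx the direction turned in CPM of full-length reads (331 and 280), of which it had 310 and 88. Acly, which cleaves exported citrate (2034 and 1908), Slc25a1, the citrate carrier (347 and 412), and Slc25a11, the oxoglutarate carrier (233 and 219), did not pass. Got1 (399 and 207; log2 -0.87) and Got2 (153 and 48.2; log2 -1.57), the aspartate aminotransferases of the malate-aspartate shuttle, were lower, while Mdh1 (739 and 610) did not pass. In CPM of full-length reads Got2 stood at 152 and 19.1. Of the cytosolic partners, Ldha was higher (776 and 996; log2 0.43), Idh1 (1069 and 767; log2 -0.41) and Me1 (962 and 661; log2 -0.47) were lower, and Ldhb (254 and 224) and Aco1 (174 and 183) did not pass.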

How the data were processed

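The authors deposited read counts per transcript model, with exon numbers, lengths and, in GTF files, coordinates; per the file headers and the labels, models were named by TALON in an ENCODE long-read pipeline on mm10. For the aligner, versions and filters: not given in the sources used here. Genes marked as known, spike-ins left out, were summed; Known, NIC and NNC models counted as full-length. Gene reads were compared by the exact binomial test with TMM factors from edgeR 4.0.16 (1.03 and 0.976), isoform shares by Fisher's exact test (scipy 1.17.1). DESeq2 1.42.0 gave alternative size factors. Adjusted p-values are Benjamini-Hochberg values over all genes tested, called below 0.05. The tests were checked on simulated counts that held counting error alone. The simulated isoform shares lay mid-range and shifted by large steps, so small shifts at shares as high as the members' were not checked. Intron chains were matched exactly to GENCODE M21, copies found with blastn 2.17.0. Named were all 9 members, their models with at least 5% of full-length reads and 5 reads, chains found in both libraries, and other pathway genes called or at a mean of at least 100 CPM (reads per 1000000 annotated-gene reads); 1 of these is not reported here. The members and lists were chosen with earlier results of these data known. Intervals, floors and p-values cover counting error alone, and differences between the 2 libraries may be technical.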

Additional observations from a re-analysis of the deposited data

How the results depend on the processing

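Replicate 1 was thinned to the depth of replicate 2 in 1 random draw. Of the 9 genes, 1 passed then (Idh3g) in place of 4, against 12.2% of all genes in place of 14%. Of the other pathway genes, 12 of 39 passed in place of 14 of 40. Idh3a lost its call (log2 0.41, against 0.38 before thinning). The calls of Mpc1 and Pdha1 were lost there too (log2 0.37 and -0.39, adjusted p = 0.145 for both, exact binomial). DESeq2 size factors gave 4 members (13.9% of all genes) and no filter on low counts 4 (7.09%). Total reads without TMM gave 3 (13.9%) and turned the calls over all genes from 56.2% higher to 47.2% higher. The members' summed level of 3616 CPM was 3623 and 3608 with 1 library left out, 3923 in full-length CPM, 3746 without Genomic reads and 3822 with Mpc1-ps added to Mpc1. With all reads of a gene in place of full-length ones, 2 members differed in leading share instead of 0 and 532 genes instead of 32. They were Idh3b (-16.5 percentage points, replicate 2 minus 1) and Mdh2, which turned from -0.22 to 7.93 points, since incomplete reads then count against the leading model. All 9 members kept their leading model with all reads and with either library left out. Chains of replicate 1 found in replicate 2, 13 of 24 in the main count, numbered 17 of 24 with splice sites within 10 bases. They numbered 17 of 87 from 1 read and 8 of 9 from 5 reads. Those found in the other direction, 11 of 12 in the main count, numbered 11 of 12 within 10 bases, 17 of 33 from 1 read and 7 of 7 from 5 reads. Genes led by an unannotated chain numbered 116 from 10 full-length reads and 25 from 50, and between 73 and 207 with 1 library left out, where the lead and the minimum of reads are asked of 1 library instead of 2 (3029 and 5740 genes in place of 3015). No paired analysis was possible because there is 1 group.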
